A study of Mus musculus with 6 samples.

Results

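Genes that mark microglia were followed through nuclei of mouse brain: Csf1r, Cx3cr1, P2ry12, C1qa, C1qb, C1qc, Inpp5d, Ctss and Siglech. These members were chosen by name as identity genes of the cell type, and they are 9 of the 25696 genes in all tables together. The droplet table held all 9 among 19905 genes. The bulk SCRB-seq table held 8 of 19006 mouse genes, the bulk SMART-Seq2 table held 8 of 21987, and 8 of 23295 were in the table that sets plate nuclei of fixed and frozen tissue side by side. P2ry12 was not analysed in these, and its values come from the droplets alone.

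The labelled samples were cortex of C57BL/6J mice of 8 to 12 weeks, with no transgene, drug or disease named; these labels do not speak of the frozen nuclei. The fixed tissue was formalin-fixed and paraffin-embedded (FFPE), cut as 50 µm scrolls, and cleared of paraffin with warmed mineral oil, warmed xylene or xylene at room temperature before the nuclei were released and sorted. Frozen nuclei stand beside them in the annotation tables, where nothing further is said of their tissue, strain, age or animals. Nothing says that wells came from separate animals, so each p-value below measures the spread between wells, which may be technical.

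SCRB-seq, a plate method that reads a tag per transcript end, covered 64 bulk wells: 16 for each of the 3 ways of clearing paraffin and 16 frozen, with 8 of each 16 holding 10 nuclei and 8 holding 100. Mouse counts per well ran from 7512 to 167144. SMART-Seq2, which reads along the transcript, covered 12 bulk wells of 10, 50 or 100 nuclei with 270363 to 942966 counts, and single nuclei in plates with a median of 180584 counts in batch 1 (98 FFPE nuclei), 47887 in the later FFPE plates (143 nuclei, 134 of them in the batch 2 table with 0 differing values) and 255329 in the frozen plates (137 nuclei). The droplet library held 7031 FFPE nuclei with a median of 325 unique molecules (UMIs), in 12 classes named by the authors, with 0 barcodes shared since it is 1 library. A list of cerebellar granule neuron genes, not a cortical type, summed to 1354 CPM (counts per 1000000 counts) in FFPE and 9.39 CPM in frozen SCRB-seq wells, and to 959.6 and 12.5 CPM in the plate nuclei. Fixation and the cells that each block supplied therefore cannot be told apart in any comparison of FFPE with frozen nuclei below.

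Microglia are the resident macrophages of the brain parenchyma. They depend on signals through the receptor Csf1r, respond to neurons through Cx3cr1 and to released nucleotides through P2ry12, and supply most of the brain's C1q, the recognition molecule that starts the classical complement cascade and tags synapses and debris for uptake. Inpp5d is a phosphatase that damps receptor signalling in immune cells, Ctss is the lysosomal protease cathepsin S, and Siglech is a sialic-acid-binding receptor. Other macrophages of the brain borders share several of these genes, in particular Csf1r and C1q.

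On the mouse build GRCm38 (GENCODE M21), the C1q genes form 1 cluster on chromosome 4, all on the minus strand: C1qb at chr4:136880129-136886187, C1qc at chr4:136889804-136893065 and C1qa at chr4:136895917-136898803, with gaps of 3616 and 2851 bases between them. Inpp5d lies at chr1:87620312-87720507, Ctss at chr3:95526786-95556403 and Siglech at chr7:55768178-55778925, all on the plus strand. P2ry12 (chr3:59216272-59262871, minus strand) overlaps Med12l on the other strand, and Csf1r overlaps Hmgxb3 on the other strand. The annotated span of Cx3cr1 (chr9:119901616-120069879, minus strand) is 168264 bases and overlaps 9 other genes, among them Wdr48, Gorasp1, Ttc21a, Csrnp1 and Xirp1. How reads in such overlaps were assigned, and whether strand was used, were not given in the sources used here, so part of the counts of these genes could belong to a neighbour.

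Because all 9 genes peak in 1 droplet class (below), the start regions of those with a promoter entry were searched for AGGAAGT, a core of the kind bound by the macrophage factor PU.1, on both strands. The letters were chosen after the sequences had been seen, so a high share among these genes is no finding and was not tested. Of the 7 genes with an entry in the RefSeq table (GRCm38.p6, 250 bases before to 50 after the start), 5 held it, against 9.35% of 32851 promoters of the same length. The windows are printed along each gene's own strand, with the match in capitals (ACTTCCT where it lies on the opposite strand).
Inpp5d, chr1:87620278-87620314, plus strand: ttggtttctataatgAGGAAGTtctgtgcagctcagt
P2ry12, chr3:59263016-59263052, minus strand: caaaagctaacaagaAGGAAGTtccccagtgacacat
Ctss, chr3:95526769-95526805, plus strand: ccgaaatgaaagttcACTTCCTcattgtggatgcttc
C1qb, chr4:136886232-136886268, minus strand: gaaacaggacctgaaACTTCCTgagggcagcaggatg
C1qc, chr4:136893088-136893124, minus strand: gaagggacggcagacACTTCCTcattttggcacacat
Counted from the RefSeq start, the match began 19 bases before it in Inpp5d, 52 in P2ry12, 2 in Ctss, 53 in C1qb and 195 in C1qc. The RefSeq start lies inside the GENCODE span given above for C1qc and outside it for P2ry12 and C1qb, so distances from the ends of those spans differ. Inpp5d held 2 matches and the others 1. Siglech and Cx3cr1 held none, and a match is a description of these letters only.

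In the droplets, each of the 9 genes had its highest level in the class the authors named Microglia. That class has 93 of the 7031 nuclei, with a median of 285 UMIs against 325.5 in the other 6938. The class was drawn from these same counts, so its levels are a description and were not tested. Its nuclei held 89 of the 491 UMIs of the 9 genes, which is 18.1% of them, and the summed level was 3038 CPM (95% Poisson interval 2440 to 3738). The other 11 classes lay between 135 in ExNeuron1 and 252 in Fibroblast, and their intervals overlap one another across much of that range. The ratio of the microglia class to all others was 19.5, and leaving out any 1 of the 9 genes gave 17.5 to 21.9.

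**Figure D1:**
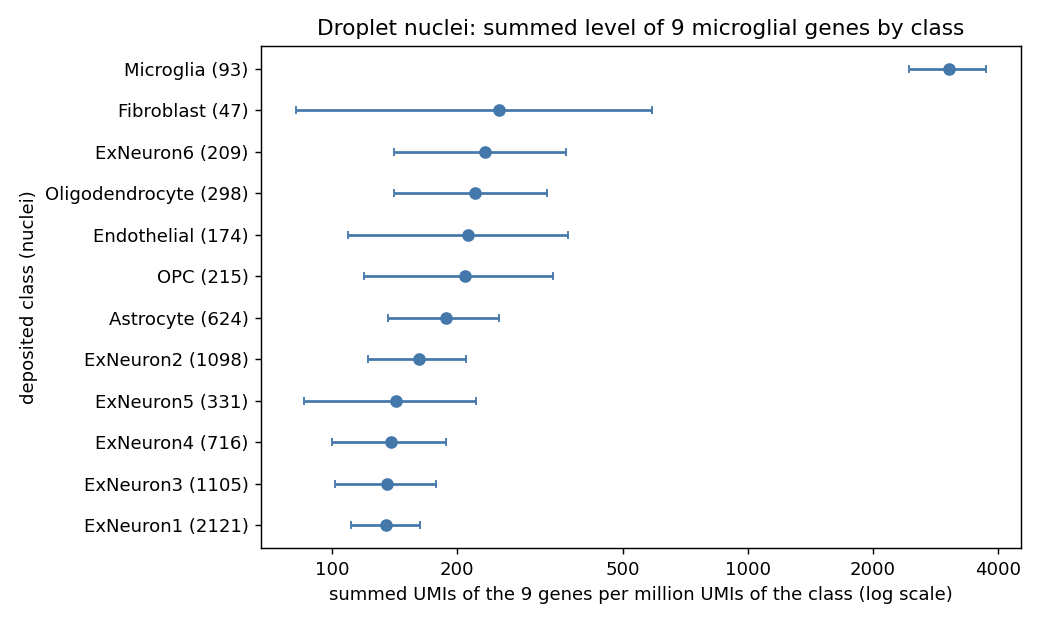
Summed level of the 9 genes in each droplet class, in CPM of the UMIs of the class (log axis), with exact 95% Poisson intervals that cover counting error only; the number of nuclei is in brackets. The microglia class stands at 3038, and the other classes lie between 135 and 252.

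Among the receptors, Csf1r had 16 UMIs in the class, a level of 546 CPM against 21.4 in all other nuclei. The next class was Endothelial at 53.0. Cx3cr1 had 9 UMIs (307 against 31.4 CPM) and the lowest ratio of the 9 genes, 9.77. P2ry12, a gene often used to tell microglia from other macrophages, had 10 UMIs (341 against 16.3). Siglech had 6 UMIs (205 against 4.27) and a ratio of 48.0. Each receptor was thus several times more frequent in the class than elsewhere, although the counts behind each are small.

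The C1q chains gave 5 UMIs for C1qa (171 against 9.71 CPM), 14 for C1qb (478 against 26.0) and 7 for C1qc (239 against 12.8). Their ratios of 17.6, 18.4 and 18.7 lay close together. C1qb was also seen in Fibroblast nuclei at 101 CPM. Inpp5d had the sharpest pattern, with 11 of its 22 UMIs in the class (375 against 4.27 CPM, a ratio of 87.9) and UMIs in 5 of the 11 other classes. Ctss also had 11 UMIs there, but 77 elsewhere (375 against 29.9), and its next class was Endothelial at 106.

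**Figure D2:**
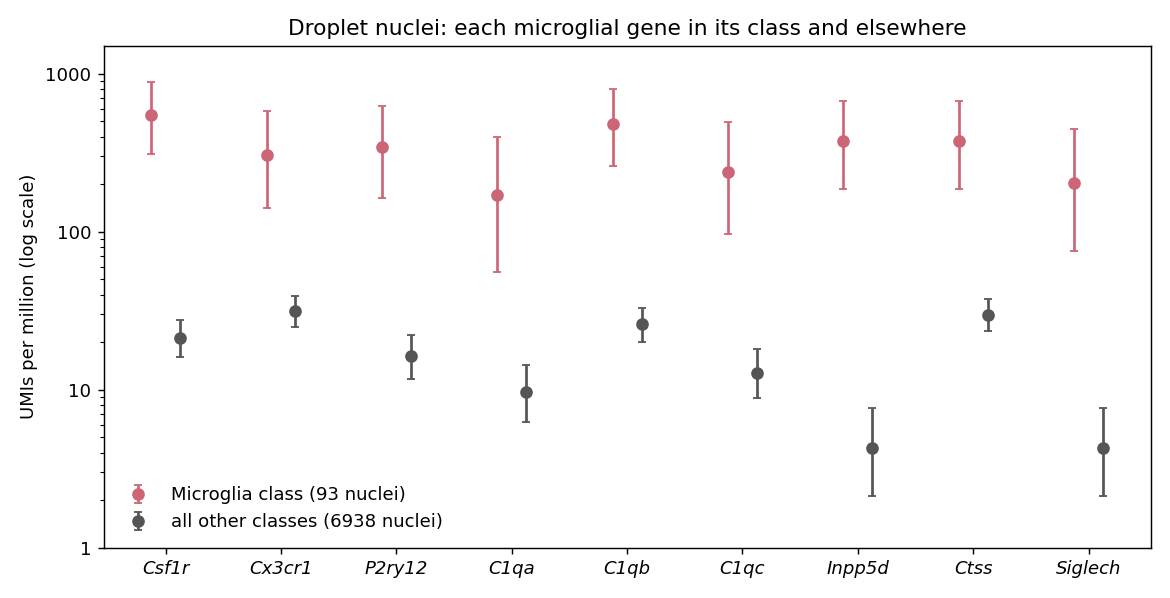
Level of each gene in the 93 nuclei of the droplet microglia class and in the 6938 nuclei of all other classes, in CPM of UMIs on a log axis, with exact 95% Poisson intervals for counting error. Inpp5d and Siglech show the widest gap, with 4.27 CPM elsewhere, and Cx3cr1 the narrowest.

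All 9 genes were at least 4 times higher in the class than in the rest, a fold that 637 of 12176 genes with at least 10 UMIs reached (5.23%). Since the class was built on these cells, this count is given as a description. At the level of single nuclei, 50 of 93 held at least 1 UMI of the 9 genes (53.8%, exact binomial interval 43.1 to 64.2). In all other classes the share was 5.45%. How much of that share is free RNA, doublets or wrongly assigned nuclei was not tested. With every nucleus thinned to 250 UMIs, the shares were 45.9% of 85 and 3.98% of 6763 nuclei, and 183 shallower nuclei, 8 of them in the class, were left out. Of the 93 nuclei, 43 held none of the UMIs, 26 held 1, 14 held 2, 8 held 3, 1 held 4 and 1 held 7. At least 2 different genes of the 9 were seen in 21 nuclei of the class (22.6%) and in 16 nuclei of all others (0.231%). Doublets were not called here, and the authors' handling of them was not given in the sources used here.

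Across the 12 classes, the patterns of 7809 genes with at least 50 UMIs were set beside that of the summed 9, by Pearson correlation over classes as a description. Among the most alike were Ly86 (r = 0.994), a partner of an innate immune receptor, Ivns1abp (0.991), Pag1 (0.984), Cbx5 (0.980), Psmb7 (0.976), Snx29 (0.972) and Lpcat2 (0.967). With 12 points and 1 class far above the rest, such a value reports little more than a peak in that class, and all points share 1 library. Ranked by fold over the next class, the leading other genes included Apbb1ip, an adaptor of integrin signalling (28.7-fold, 11 UMIs), Ly86 (9.02-fold), Ivns1abp (5.66-fold), Pag1 (4.86-fold), Plxdc2 (3.80-fold, 43 UMIs), Snx29 (3.18-fold) and 1700112E06Rik (2.77-fold).

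Other microglial lists were also high in the class. Of 27 other microglial surface and signalling genes in the table, 24 had UMIs there, summing to 3277 CPM against 253 elsewhere. Microglial transcription factors summed to 2321 against 781, and lysosomal and secreted genes to 5257 against 1845. Of the markers of other macrophages and blood cells, 1 of 6 border macrophage genes had a single UMI in the class (34.1 CPM against 8.54 elsewhere) and 0 of 5 blood immune cell genes had any. Neuronal genes stood at 10138 CPM in the class and 11270 elsewhere, and oligodendrocyte genes at 3004 and 2451. Astrocyte genes stood at 2560 and 2498, oligodendrocyte precursor genes at 205 and 311, endothelial genes at 137 and 169 and mural genes at 0 and 113. Transcripts of neurons, astrocytes and oligodendrocytes were thus present in the class at levels near those elsewhere, and their part in its levels was not tested.

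In the SCRB-seq bulk wells, the members held 1193 counts in the 48 FFPE wells and 151 in the 16 frozen wells, or 401 and 142 CPM when wells are pooled. Csf1r and C1qb were absent from every frozen well, Ctss was higher in FFPE wells, and Cx3cr1 was not. In bulk wells, fewer microglia and less RNA per microglial nucleus cannot be told apart. A well of 10 nuclei may also hold no microglial nucleus at all.

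Csf1r, on chromosome 18, had 183 counts in FFPE wells and 0 in frozen wells. Its level over the 48 FFPE wells was 0 CPM at the lowest, 24.1 at the median and 451 at the highest, and 0 in all 16 frozen wells. A count was present in 29 FFPE wells, so the groups overlap only at 0. Against a floor of 3 counts over the whole frozen group, and leaving out whichever FFPE pool of 8 wells (1 treatment and 1 nuclei number) mattered most, Csf1r was at least 14.4-fold higher in FFPE wells. The pool left out was that of 10 heated-xylene nuclei, which held 80 of the 183 counts.

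C1qb, a chain of the complement recognition molecule, had the same pattern, with 187 counts in 34 of 48 FFPE wells and 0 in frozen wells. Its FFPE wells ran from 0 to 264 CPM with a median of 26.8, and it was at least 17.1-fold higher by the same rule. The other chains were not absent from frozen wells. C1qa had 43 FFPE counts in 22 wells and 4 frozen counts in 3 wells (14.4 and 3.75 CPM pooled). C1qc had 89 counts in 16 FFPE wells and 8 in 3 frozen wells (29.9 and 7.51 CPM). For both genes the groups overlap, and most wells of either kind held none.

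Ctss, the lysosomal protease, had 328 counts in 32 FFPE wells (0 to 409.7 CPM, median 51.1) and 10 in 5 frozen wells (0 to 53.1 CPM, median 0). Pooled, it stood at 110.2 and 9.39 CPM, a ratio of 11.7, and frozen wells lay within the lower part of the FFPE range. Inpp5d had 108 and 20 counts, with medians of 12.4 and 14.6 CPM that were nearly level. Siglech had 34 counts in 10 FFPE wells and 1 count in 1 frozen well, a ratio of 12.2 with a counting interval of 2.18 to 481. A single heated-xylene well held 13 of the 34 counts, and without it the ratio was 7.65.

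Cx3cr1, the receptor for the neuronal ligand Cx3cl1, was the exception. All 16 frozen wells held it, from 45.8 to 264 CPM with a median of 87.3. In FFPE wells it ran from 0 to 248 CPM with a median of 49.8, and 40 of 48 had a count. The groups overlap across nearly the whole range. Its pooled ratio of FFPE to frozen was 0.732. In wells of 10 nuclei Cx3cr1 stood at 30.7 CPM in FFPE and 119 CPM in frozen wells, and in wells of 100 nuclei at 97.7 and 94.7 CPM.

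**Figure D3:**
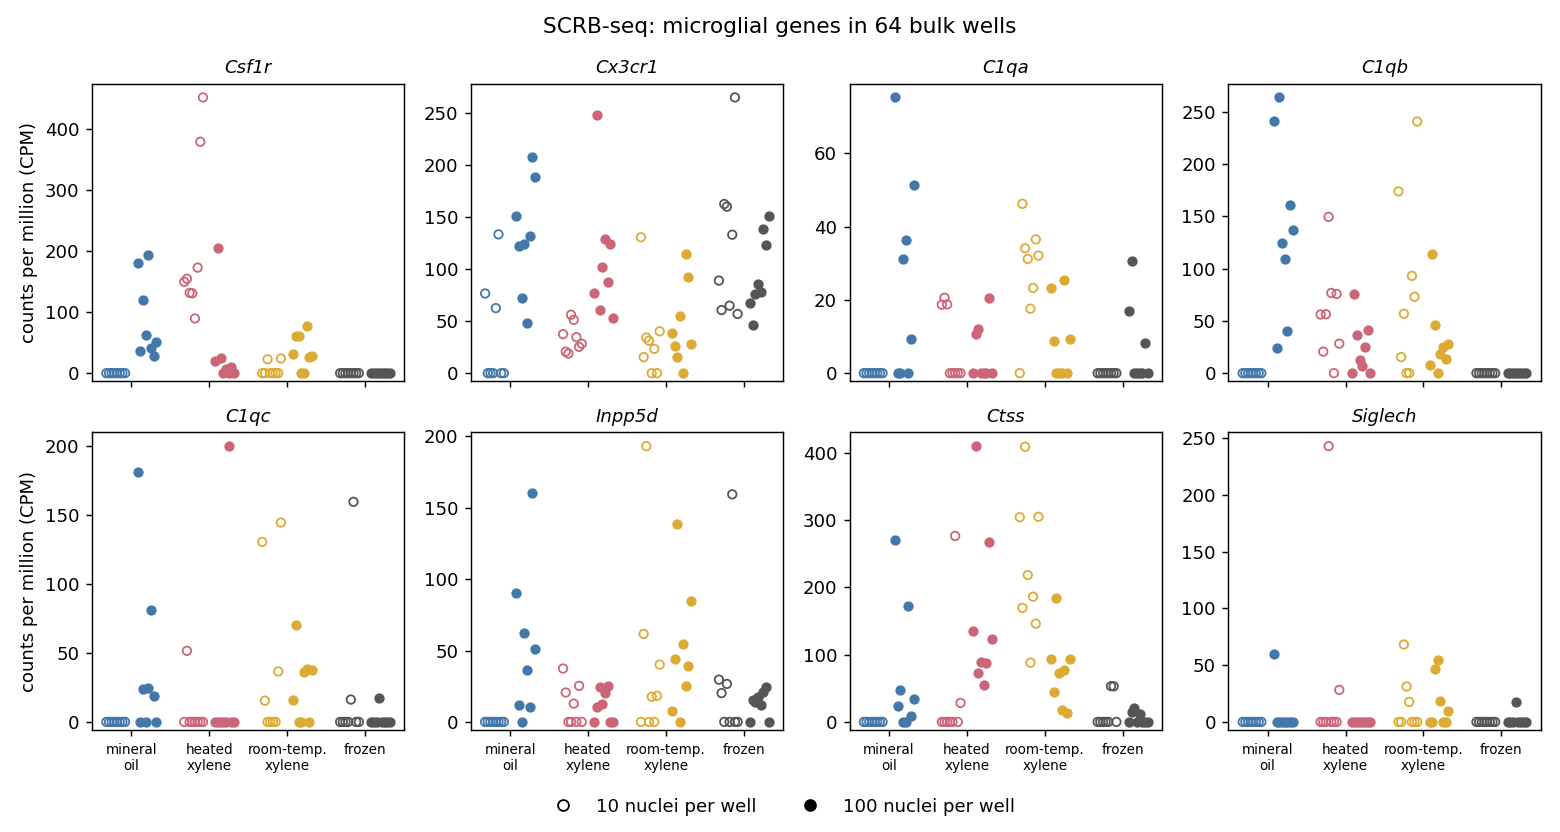
Level in CPM of 8 genes in the 64 SCRB-seq wells, 1 point per well, by treatment (open circles 10 nuclei, filled circles 100 nuclei; axes differ between genes). Csf1r and C1qb are at 0 in all 16 frozen wells, whereas Cx3cr1 is present in all of them.

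These differences were tested with edgeR's quasi-likelihood test on all genes of the table, as the mean of the 3 FFPE treatments minus frozen. The preset filter on low counts left 1478 genes, of which 58% were called, and none of the 8 members. With a lower filter (at least 1 count in 16 of the 64 wells), 11231 genes were tested and 7 of the 8 members were among them; Siglech, with a count in 11 wells, was not. Csf1r and C1qb passed this filter through FFPE wells alone and so had to differ; no fold or p from this fit is given for them, and their lower bounds stand above. As a description, 3 of the 7 were called higher at an adjusted p under 0.05 and 0 were lower, beside 33.5% of all genes called in either direction and 11.2% called higher. They were Csf1r, C1qb and Ctss. Ctss rose by 2.90 ± 0.63 on the log2 scale (SE, adjusted p = 0.000121), and by 3.07 ± 0.62 (adjusted p = 3.95e-05) with no filter. C1qa was at 1.30 ± 0.57 (adjusted p = 0.0671), C1qc at 1.18 ± 0.69 (0.185), Inpp5d at 0.37 ± 0.55 (0.650) and Cx3cr1 at -0.77 ± 0.37 (0.0985). The median over the 7, as a description, was 1.30, and over all genes tested -0.21.

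A permutation test on CPM over wells, with no filter and 19006 genes tested, called C1qb (adjusted p = 0.0259) and Ctss (0.0395) and left Csf1r at 0.0818 and Cx3cr1 at 0.0712; it called 12.9% of all genes. The 8 wells of 1 treatment and 1 nuclei number share a library index, so the counts were also summed over each such pool. On these 8 sums edgeR called 0 of 7 members and 0.752% of all genes, with Ctss at an adjusted p of 0.324, and 3 members had an unadjusted p under 0.05, among them Csf1r and C1qb with their frozen sums at 0. With DESeq2's size factors, which called 43.4% of the genes, the median over all genes moved from -0.21 to -0.69 and the genes called higher and lower from 1254 and 2511 to 759 and 4115; Ctss remained higher (log2 fold change 2.47, adjusted p = 0.00116), and Cx3cr1 became lower (log2 fold change -1.32, adjusted p = 0.0019).

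Other genes of the same biology were described from listed genes. The shares to set beside their counts are the 33.5% of all genes called in either direction and the 11.2% called higher with the lower filter. With the lower filter, 6 of 14 tested microglial surface and signalling genes were called higher in FFPE wells: Dock8 (log2 fold change 2.28), Selplg (2.26), Itgam (1.39), Laptm5, Fcer1g and Trem2, a lipid-sensing receptor. No fold is given for the genes with 0 to 3 counts in the frozen wells, which passed the filter through FFPE wells, and their calls are a description. Laptm5 had 207 FFPE and 3 frozen counts, Fcer1g 95 and 0, and Trem2 73 and 2. Of 4 transcription factors, Runx1 (2.34) and Ikzf1 (81 and 3 counts) were higher and Mef2c, which neurons also express strongly, was lower (-2.85). Among 8 lysosomal and secreted genes, those higher included the protease Ctsb (2.00) and Fcrls (118 and 0 counts). Of 3 ligands, Cx3cl1, the neuronal ligand of Cx3cr1 (-2.57), and Il34, a ligand of Csf1r (-1.72), were lower, and of 4 activation genes Cd9 (1.54) and Gpnmb (25 and 1 counts) were higher. In the main test, which left 1478 genes, the calls among these lists were Ctsb (2.05) higher and Mef2c (-2.81) and Cx3cl1 (-2.57) lower.

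Genes of other cell types were called as well, in a fit that called 33.5% of all genes in either direction and 11.2% higher. Granule neuron genes were called higher for 5 of 5 tested, of which Zic1 had 7 frozen counts and Gabra6, Cbln3, Cbln1 and Fat2 had 0 to 2 and passed the filter through FFPE wells. Astrocyte genes were called higher for 5 of 6 and oligodendrocyte genes for 3 of 8, and neuronal genes were higher for 1 and lower for 4 of 8. Border macrophage genes, which would include the other Csf1r-positive macrophages, summed to 50.4 CPM in FFPE and 19.7 CPM in frozen wells. F13a1 alone gave 40.0 and 12.2 CPM of these sums, and a heated-xylene well reached 631 CPM for the list. In frozen wells 4 of 5 were detected, with Lyve1 at 0. Blood immune cell genes summed to 17.8 and 15.95 CPM. The part of these in the results for the members was not tested.

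Between the 3 ways of clearing paraffin, the summed level of the 8 genes, pooled over wells, was 462 CPM for mineral oil, 369.9 for heated xylene and 395 for xylene at room temperature. Taken as the median well, the order turned, with 176, 294 and 322 CPM, and the means of the wells were 294, 381 and 380 CPM. Csf1r was higher in heated than in room-temperature xylene, Inpp5d lower, and Ctss was lower in mineral oil than in room-temperature xylene. The difference between treatments itself differed between wells of 10 and of 100 nuclei for 3 of 7 members between mineral oil and heated xylene (21.7% of all genes, edgeR), for Csf1r and Ctss, 2 of 7, between the xylenes (17.1%) and for 4 of 7 between mineral oil and room temperature (19.3%). In both pairs with mineral oil, each gene called was at 0 in the mineral-oil wells of 10 nuclei.

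Csf1r in heated xylene ran from 0 to 451 CPM with a median of 110.1, and 13 of 16 wells had a count. In room-temperature xylene it ran from 0 to 76.4 CPM with a median of 11.4, and 8 of 16 wells had a count. The groups overlap up to 76.4 CPM. In mineral oil the median was 14.2 CPM and the highest well 194. By edgeR with the lower filter, heated exceeded room-temperature xylene by 2.16 ± 0.65 on the log2 scale (SE, adjusted p = 0.0126), and the permutation test gave an adjusted p of 0.0385. The high wells were those of 10 nuclei: all 8 held 5 to 16 Csf1r counts (182 CPM pooled), and the 8 wells of 100 nuclei held 24 counts, 19 of them in 1 well (34.9 CPM). In wells of 100 nuclei alone, the difference was -0.034 on the log2 scale (adjusted p = 0.988, edgeR).

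Inpp5d, the signalling phosphatase, had a median of 11.7 CPM and a highest well of 37.4 in heated xylene. In room-temperature xylene the median was 32.4 and the highest well 193, and in mineral oil 0 and 160. Heated xylene was lower than room-temperature xylene by edgeR (-1.82 ± 0.65, adjusted p = 0.0421), but not by the permutation test (adjusted p = 0.0982). All 3 ranges overlap from 0 up to 37.4 CPM.

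Ctss was present in all 16 wells of room-temperature xylene, from 13.1 to 409 CPM with a median of 120.1. In mineral oil 6 of 16 wells held it, with a median of 0 and a highest well of 271. Heated xylene lay between, with a median of 63.4 CPM and 10 of 16 wells. Mineral oil was lower than room-temperature xylene (-1.82 ± 0.63, adjusted p = 0.0313 by edgeR and 0.0289 by the permutation test), with overlapping wells. The call was lost with DESeq2's size factors (-1.65, adjusted p = 0.0641) and in wells of 100 nuclei alone (-0.083, adjusted p = 0.957), where mineral oil stood at 73.9 CPM and room-temperature xylene at 75.2. All 42 mineral-oil counts came from wells of 100 nuclei, and the wells of 10 nuclei held 0. The protease was also uneven between pools of the xylenes: room-temperature wells of 10 nuclei stood at 246 CPM and those of 100 nuclei at the 75.2 given, while in heated xylene they stood at 20.5 and 154.

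The pool of 10 mineral-oil nuclei was nearly empty of these genes. Its 8 wells had 7512 to 20593 counts each and held 3 member counts, all of Cx3cr1 and in 3 wells. At a total of 115185 counts, the floor of 3 counts stands at 26.0 CPM there, and the exact 95% upper limit of a count of 0 at 32.03 CPM. The mineral-oil wells of 100 nuclei, in contrast, held 313 member counts, 551 CPM, the highest sum of all 8 pools, with Cx3cr1 at 135 CPM, C1qb at 125 and Csf1r at 84.4.

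The count of called members was 2 of 7 for heated minus room-temperature xylene (16.4% of 10844 genes called in either direction), 1 of 7 for mineral oil minus room-temperature xylene (19% called) and 0 of 7 for mineral oil minus heated xylene (22.6% called), where no member had an unadjusted p under 0.05 and the permutation test also called 0. The permutation test called 1 member, Csf1r, in the first pair (6.45% of all genes), 1, Ctss, in the second (7.49%) and 7.19% of all genes in the third. With 7 members, counts of 2, 1 and 0 beside these shares are given as a description. On pool sums, 0 of 7 members and 0 of 9161 genes were called in each pair. Cx3cr1 stood at medians of 74.2 CPM for mineral oil, 54.5 for heated xylene and 29.7 for room temperature, and its largest log2 difference, 1.04 ± 0.54 for mineral oil minus room temperature, had an adjusted p of 0.176. The C1q chains had log2 differences between -1.27 and 0.97 across the pairs, all with an adjusted p above 0.05.

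Within the 48 FFPE wells, member levels were only loosely related. The highest Spearman correlation was 0.57, between Csf1r and C1qb, which shared 27 wells with a count of both. The C1q chains correlated at 0.43 (C1qa with C1qb), 0.43 (C1qb with C1qc) and 0.30 (C1qa with C1qc), and Csf1r with Ctss at -0.05. These values are a description over wells that share pools and differ in depth.

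In the 12 SMART-Seq2 bulk wells, member counts again gathered in FFPE wells. Pooled, the mineral-oil wells stood at 343 CPM, those of heated xylene at 301 and those of room-temperature xylene at 48.4, against 15.4 in the frozen wells. Most came from the mineral-oil and heated-xylene wells of 50 and 100 nuclei, which stood at 823, 307, 570 and 222 CPM. The 10-nuclei wells of mineral oil and of room-temperature xylene stood at 0 and 6.09 CPM, and the frozen wells at 8.98, 37.0 and 15 CPM.

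Csf1r had counts of 0, 50 and 21 in the mineral-oil wells of 10, 50 and 100 nuclei. It had 0, 70 and 31 with heated xylene, 0, 0 and 16 with xylene at room temperature and 0, 1 and 0 when frozen. It was seen in 5 of 9 FFPE wells, all of them above each frozen well. Ctss, in the same order, had 0, 54 and 57, then 0, 152 and 28, then 3, 1 and 5, then 0, 1 and 0 counts. C1qb had 0, 55 and 42, then 0, 38 and 12, and 0 in every room-temperature and frozen well. The other C1q chains were less alike, since C1qc had 65 counts in the heated-xylene well of 10 nuclei, where C1qa and C1qb had 0.

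Inpp5d, in that order of treatments, had 0, 88 and 2, then 45, 54 and 26, then 0, 0 and 9, and 2, 1 and 1 counts when frozen. Siglech had 0, 47 and 15, then 16, 56 and 9, then 0, 0 and 8 counts, and 0 in every frozen well. Cx3cr1 had 0, 34 and 50, then 1, 23 and 11, then 0, 6 and 9, and 2, 7 and 6 in frozen wells, so that, as in SCRB-seq, this receptor was detected in all frozen wells. For genes at 0 in frozen wells, the pooled FFPE level was set against the floor of 3 counts, leaving out whichever 1 FFPE well mattered most. By that rule C1qb was at least 9.55-fold, C1qc at least 9.92-fold and Siglech at least 10.6-fold higher. These bounds do not hold for each treatment: C1qb had a count in 4 of 9 FFPE wells and in 0 room-temperature wells. Csf1r, with 1 frozen count, had a ratio of 54.2 (counting interval 9.72 to 2140) and Cx3cr1 a ratio of 2.57.

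**Figure D4:**
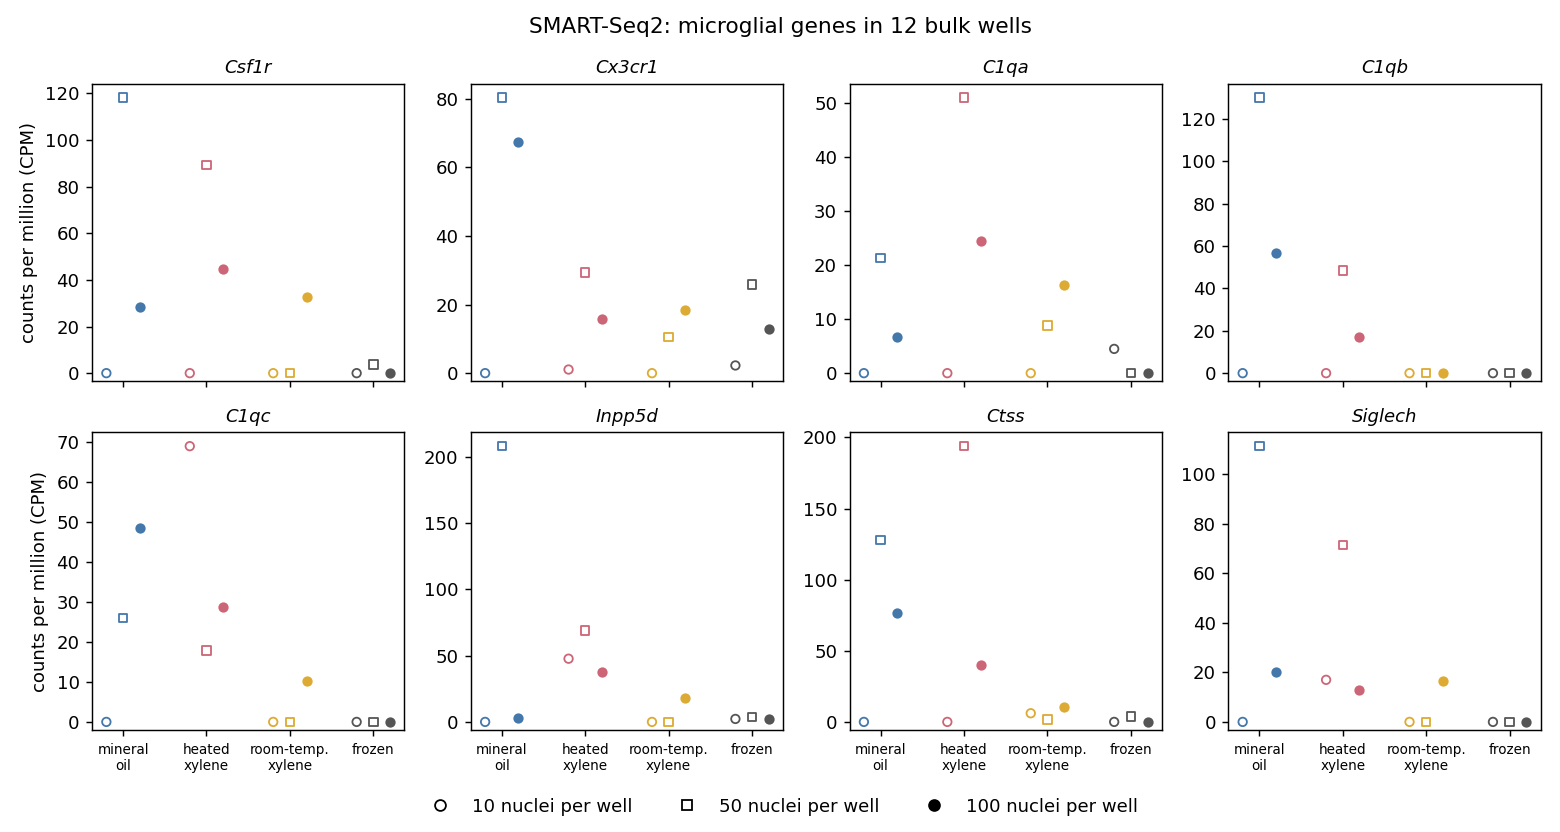
Level in CPM of 8 genes in the 12 SMART-Seq2 bulk wells, 1 point per well, by treatment and number of nuclei (open circle 10, open square 50, filled circle 100; axes differ between genes). The mineral-oil and heated-xylene wells of 50 nuclei are among the highest, and C1qb, C1qc and Siglech are at 0 in the 3 frozen wells.

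None of these differences passed the test. Of 8 members tested among 9092 genes, edgeR called 0 for FFPE minus frozen, beside 4.09% of all genes, and so did DESeq2. C1qc, Ctss and Siglech had an unadjusted p under 0.05. Ctss, with 1 frozen count, had a ratio of 86.5 (counting interval 15.5 to 3415; 49.5 without the heated-xylene well of 50 nuclei) and an adjusted p of 0.278, and no fitted fold is given for C1qc and Siglech, at 0 in the frozen wells; that of C1qb could not be estimated. The standard errors lay between 1.51 and 2.61, so with 3 wells a group, differences of this size were not separable from the spread between wells. Between treatments, 0 of 8 members and 0 of 8372 genes were called in any pair. Among the listed genes, Cst3, a secreted protease inhibitor abundant in microglia and astrocytes, was higher in FFPE wells (3.71) and Mef2c lower (-1.88).

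Among single plate nuclei, a larger share of frozen than of FFPE nuclei held a member count. This share is a different measure from the pooled CPM of the bulk wells, and the plate levels in CPM are given below. At least 1 count of any of the 8 genes was found in 70 of 143 FFPE nuclei of the later plates (49.0%, exact binomial interval 40.5 to 57.4), in 93 of 137 frozen nuclei (67.9%, 59.4 to 75.6) and in 23 of 98 FFPE nuclei of batch 1 (23.5%, 15.5 to 33.1). Each arm is 1 sample, so no test was made, and the intervals cover counting error only. Depth differs between the arms. With every nucleus thinned to 10000 counts the shares were 28.9% of 135 FFPE and 44.9% of 127 frozen nuclei, and 12.2% of 90 in batch 1. The frozen share stayed above the FFPE share.

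Gene by gene, Csf1r was counted in 28 FFPE nuclei (19.6%) and 51 frozen nuclei (37.2%), and Cx3cr1 in 29 (20.3%) and 61 (44.5%). C1qa was counted in 14 (9.79%) and 25 (18.2%), C1qb in 35 (24.5%) and 47 (34.3%), and C1qc in 5 (3.50%) and 28 (20.4%). Inpp5d was counted in 25 (17.5%) and 42 (30.7%), Ctss in 34 (23.8%) and 47 (34.3%), and Siglech in 7 (4.90%) and 15 (10.9%). At 1 count, with frozen nuclei the deeper, each of the 8 genes thus had the higher share in frozen nuclei. This did not hold for Ctss at equal depth: thinned to 10000 counts it was seen in 14.1% of FFPE and 4.72% of frozen nuclei, and the other 7 genes kept the higher frozen share. Ctss also turned at 5 counts (17.5% and 16.1%) and at 100 CPM (7.69% and 2.19%), and C1qa turned at 100 CPM (2.80% and 0%). At 1 count, the intervals of C1qc (1.14 to 7.97 and 14.0 to 28.2), Csf1r and Cx3cr1 do not overlap. At equal depth those of Csf1r (4.14 to 14.1 and 8.00 to 20.6) and Cx3cr1 (6.93 to 18.5 and 17.2 to 32.8) do. Csf1r and C1qb, at 0 in all frozen SCRB-seq wells, were seen in 37.2% and 34.3% of frozen plate nuclei, a different chemistry and other libraries.

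**Figure D5:**
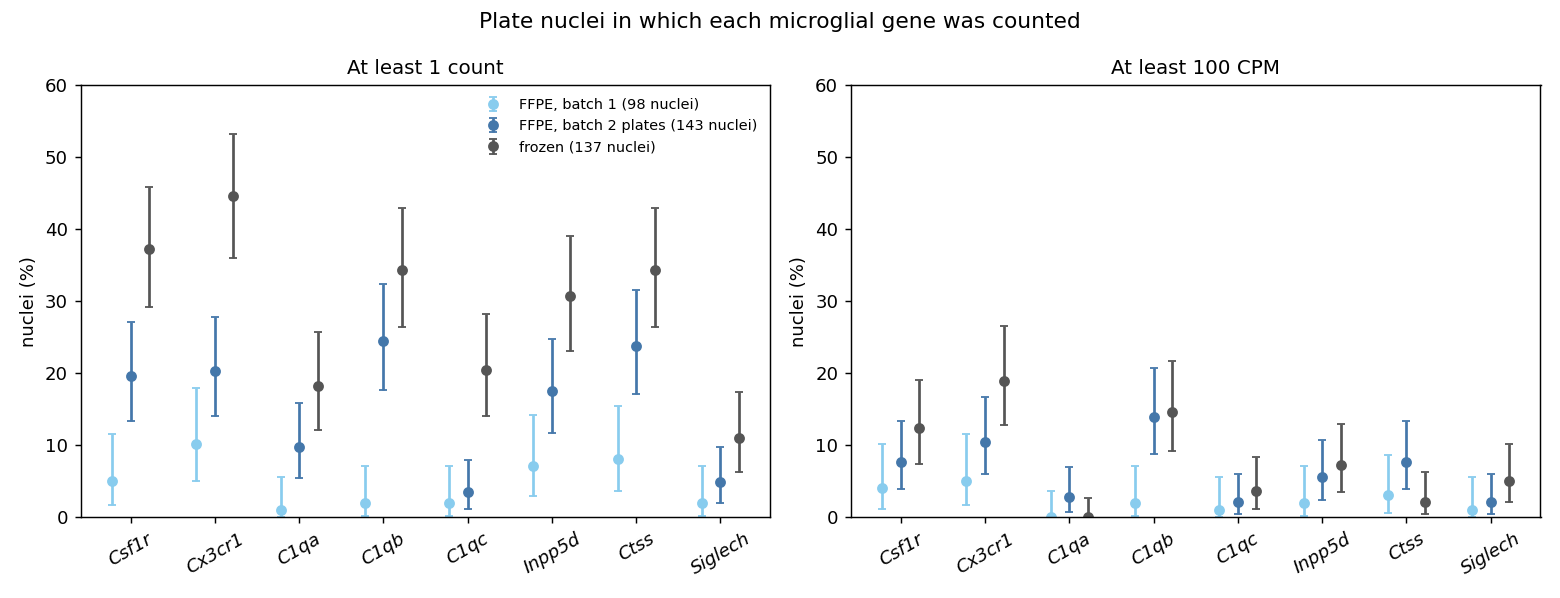
Share of plate nuclei with at least 1 count (left) and with at least 100 CPM (right) of each gene, with exact 95% binomial intervals for counting error, in FFPE batch 1, the later FFPE plates and frozen plates. At 1 count the frozen share is the highest for each gene, and at 100 CPM the shares of Ctss and C1qa are higher in the later FFPE plates.

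Many of these nuclei held few counts. At least 5 counts of a member were present in 25.2% of FFPE and 48.2% of frozen nuclei. At 100 CPM or more, any member was present in 27 FFPE nuclei (18.9%) and 54 frozen nuclei (39.4%). Summed over the 8 genes and pooled, the level was 298.7 CPM in FFPE and 424 CPM in frozen nuclei. That order rested on 1 frozen nucleus, without which the frozen level was 266 CPM. It also turned without the 9 FFPE nuclei that are not in the batch 2 table, which left the FFPE level at 468 CPM. Leaving out the fullest nucleus of each arm, in a comparison added after seeing the data, gave 263 CPM in FFPE and the same 266 CPM in frozen nuclei. Gene by gene the order varied: Csf1r stood at 75.2 CPM in FFPE and 40.7 in frozen nuclei, Cx3cr1 at 77.5 and 49.0, C1qb at 58.7 and 41.2 and Ctss at 25.9 and 15.5. C1qa was level (7.11 and 7.36), and C1qc (6.56 and 11.5) and Siglech (10.1 and 16.3) were higher in frozen nuclei. Inpp5d was at 37.7 and 242. Single nuclei carried much of these sums. A single nucleus held 61.3% of the frozen Inpp5d counts (9445 of 15406), and the top FFPE nucleus of a gene held 60.3% for Inpp5d, 92.9% for C1qc, 63.4% for Siglech and 52.4% for Ctss. For the other 4 genes the top FFPE nucleus held 22.9% to 49.4%, and for the other 7 genes the top frozen nucleus held 13.5% to 47.5%.

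How often members coincided depended on the cut. At least 4 of the 8 genes were counted in 13 FFPE (9.09%) and 39 frozen nuclei (28.5%). At 5 counts each this held for 10 (6.99%) and 22 (16.1%), and thinned to 10000 counts for 6.67% and 7.09%. A cut of at least 4 members at 100 CPM or more, chosen after the values had been seen, was met by 7 of 143 FFPE nuclei (4.90%), 1 of 137 frozen nuclei (0.730%) and 1 of 98 in batch 1 (1.02%), so only there did the order turn. That cut depends on depth: in the shallowest of the 7 FFPE nuclei a single count passes it, whereas a frozen nucleus of median depth needs more. The 7 FFPE nuclei had 9193 to 32108 counts in all, and their members summed to 5604 to 23228 CPM. The fullest, with 32108 counts, held all 8 genes: 274 counts of Csf1r, 278 of Cx3cr1, 36 of C1qa, 9 of C1qb, 5 of C1qc, 4 of Inpp5d, 30 of Ctss and 4 of Siglech. In batch 1 the nucleus had 292708 counts, with 1390 of Cx3cr1, 944 of Siglech, 771 of Ctss, 432 of Csf1r and 302 of C1qb.

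The frozen nucleus was the one with the 9445 Inpp5d counts. Of 557167 counts it also held 467 of Ctss, 133 of Csf1r and 98 of Cx3cr1. Some genes that the cut did not use were also abundant in the 9 nuclei. Other microglial surface and signalling genes ran from 1228 CPM, in the frozen nucleus, to 27345 CPM. Lysosomal and secreted genes ran from 4667 to 74779 CPM. Microglial transcription factors ran from 0 to 5934 CPM, the highest in the batch 1 nucleus. In the lowest FFPE nuclei they stood at 0 and 266 CPM, below the 756 CPM of the later FFPE plates as a whole. The other nuclei of those plates that met the cut lay above it, at 1048 to 1713 CPM. The frozen nucleus had 4751 CPM, against 490 CPM in the frozen plates. Genes of other cell types were present too. Neuronal genes ran from 672 to 6364 CPM, oligodendrocyte genes from 28.7 to 11150 CPM, the highest in the fullest FFPE nucleus, and border macrophage genes from 0 to 269 CPM. In the frozen nucleus neuronal genes stood at 5885 CPM and endothelial genes at 3701 CPM, both above its surface genes. Their part in the member levels was not tested. Over whole arms these surface genes stood at 718 CPM in the later FFPE plates and 488 CPM in frozen plates. The 2 FFPE plates of the later set had nearly equal shares of nuclei with a member, 49.3% and 48.6%, and so had the 2 frozen plates, 69.6% and 66.2%. The summed member levels of the 2 FFPE plates were unlike, at 601.6 and 205.6 CPM in the same order. Leaving out the 9 FFPE nuclei that are not in the batch 2 table, which have 102136 to 4973791 counts, gave 45.5% of 134. The same step moved the summed member level of FFPE nuclei from 298.7 to 468 CPM, past the 424 CPM of frozen nuclei.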

How the data were processed

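The deposited tables hold raw counts per gene for wells and plate nuclei, and raw UMI counts for droplet nuclei. Their builds are mm10, and hg19 for the human genes of the mixed SCRB-seq table, per the submitters' processing notes. The aligner, the counting rules and any UMI collapsing were not given in the sources used here. Human genes were left out. The plate table of batch 3 holds 0 nuclei. Treatment, nuclei number and droplet class came from the authors' annotation columns.

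Members, 15 lists of 152 genes and tests were chosen with earlier results of these data known. CPM used mouse totals. Tests were edgeR 4.0.16 (R 4.3.3; TMM, filterByExpr, quasi-likelihood, Benjamini-Hochberg over all genes, adjusted p under 0.05), all 4 treatments in 1 fit for FFPE minus frozen and the 3 FFPE treatments in another, without covariates. No member passed filterByExpr in the SCRB-seq fits on all wells, so SCRB-seq members are given with a lower filter, a listed alternative. DESeq2 1.42.0 and a 2-sided permutation test of mean CPM with 100000 resamples were alternatives. The edgeR script was tested on simulated data. Droplet and plate nuclei were not tested, since each group is 1 sample. Intervals are exact (95% Poisson or Clopper-Pearson) and cover counting error only. Thinning drew 10000 counts per plate nucleus and 250 UMIs per droplet nucleus. All members are named; of other lists, called genes, at most 5 per list and direction in the main fit, and the further lower-filter calls were named after their values were seen; in droplets, the 8 genes most like the members and the 8 leading by fold. Python 3.11.15, numpy 2.4.6, pandas 2.3.3, scipy 1.17.1 and matplotlib 3.10.9 were used. Some results for single genes, in the lists and in the droplet rankings, are not reported here.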

Additional observations from a re-analysis of the deposited data

Results flagged for a closer look

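In wells of 1 SCRB-seq pool (8 wells each), a single well stood far above the next in 10 of 41 groups of member levels examined. The rule was made for normally distributed values, and these are low counts with many zeros. Some groups also share wells, since the summed members hold the single genes. How often chance flags such groups was not tested. In mineral-oil wells of 100 nuclei, C1qc was at 180.6 CPM in 1 well and 80.8 in the next, and the summed members at 1249 and 594.5 CPM. In heated-xylene wells of 100 nuclei, Csf1r was at 204.8 CPM against 24.2, Cx3cr1 at 248.0 against 129.0, and the summed members at 959.6 against 463.0. In room-temperature xylene, Cx3cr1 was at 130.3 CPM against 40.1 and Inpp5d at 193.1 against 61.6 in wells of 10 nuclei, and C1qb at 113.8 against 46.2 and Ctss at 184.6 against 94.2 in wells of 100 nuclei. Among frozen wells of 10 nuclei, Inpp5d was at 159.4 CPM in 1 well and 29.6 in the next.

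The difference between treatments itself differed between wells of 10 and of 100 nuclei in 9 of 21 member contrasts, by edgeR's test of that difference (adjusted over 10844 genes). Between mineral oil and heated xylene this held for Csf1r (adjusted p = 0.000103), C1qb (0.000423) and Inpp5d (0.0437), beside 21.7% of all genes. Between heated and room-temperature xylene it held for Csf1r (0.00828) and Ctss (0.00239), beside 17.1%. Between mineral oil and room-temperature xylene it held for C1qa (0.0112), C1qb (0.000397), Inpp5d (0.0254) and Ctss (0.00159), beside 19.3%. In both pairs with mineral oil, the genes called had 0 counts in the mineral-oil wells of 10 nuclei, where the exact upper limit of a count of 0 is 32.03 CPM. Inpp5d in heated-xylene wells of 10 nuclei (13.6 CPM) and C1qa in room-temperature wells of 10 nuclei (30.8 CPM) were below that, so these calls compare with a count of 0. Each nuclei number is 1 pool per treatment, so nuclei number and pool cannot be told apart.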

How the results depend on the processing

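Counting error and the spread between wells limit what can be called: Siglech has 35 counts in all SCRB-seq wells, and 3 SMART-Seq2 wells a group left every member uncalled under each alternative run there. In SCRB-seq, filterByExpr tested 0 members on all wells, in wells of 10 nuclei and between treatments, and in wells of 100 nuclei 1, Cx3cr1, for FFPE minus frozen; it called 0. The other counts of called members stand beside the members tested and the share of all genes called in the same fit, and are a description. For FFPE minus frozen they were 4 of 8 with no filter (25.2%), 3 of 7 with the lower filter (33.5%), also with FFPE wells as 1 group (26.2%), 4 of 7 in wells of 100 nuclei (24.1%), 1 of 6 in wells of 10 nuclei (35.7%), 4 of 7 with DESeq2's size factors (43.4%) and 2 of 8 by permutation (12.9%). For mineral oil minus heated xylene they were 1 of 7 in wells of 100 (22.3%) and 2 of 6 in wells of 10 nuclei (37.9%), and 0 otherwise. For heated minus room-temperature xylene they were 2 of 8 with no filter (15.9%), 2 of 7 with the lower filter (16.4%) and with DESeq2's size factors (15.2%), 2 of 6 in wells of 10 (29.5%), 0 of 7 in wells of 100 nuclei (12.7%) and 1 of 8 by permutation (6.45%). For mineral oil minus room-temperature xylene they were 1 of 8 with no filter (16.1%) and by permutation (7.49%), 1 of 7 with the lower filter (19%), 4 of 6 in wells of 10 nuclei (36.4%), and 0 of 7 in wells of 100 nuclei (11.6%) and with DESeq2's size factors (17.3%). Pool sums called 0 of 7 in each. The pool sums, the ratios without 1 well or pool, the fits split by nuclei number with the lower filter, the lower filter with DESeq2's size factors, FFPE wells as 1 group and the 100 CPM cut were chosen after seeing the data. Directions reversed as follows (log2 fold change; the cause was not tested). FFPE minus frozen: Inpp5d -1.07 in wells of 10 nuclei and -0.18 with DESeq2's size factors, and in SMART-Seq2 Cx3cr1 -0.35 with nuclei number as a covariate, -0.17 without the frozen well of 10 nuclei and -0.00104 without the heated-xylene well of 50 (range -0.17 to 1.10 over single wells left out). Mineral oil minus heated xylene: Csf1r 1.24 in wells of 100 nuclei, and Cx3cr1 -0.82, C1qa -2.04, C1qb -4.49 and Inpp5d -2.51 in wells of 10. Heated minus room-temperature xylene, wells of 100 nuclei: Csf1r -0.034 and Ctss 1.09. Mineral oil minus room-temperature xylene: Csf1r -2.01, Cx3cr1 -0.61 and C1qb -4.86 in wells of 10 nuclei, C1qa 1.22, C1qc 0.64 and Inpp5d 0.085 in wells of 100, and C1qb -0.14 on pool sums. In mineral-oil wells of 10 nuclei these values, and the calls, are fitted on 0 counts (3 for Cx3cr1), where the exact upper limit of a count of 0 is 32.03 CPM. The other pool was below that for C1qa (9.10 CPM) and Inpp5d (13.6 CPM) in heated xylene and Csf1r (10.3 CPM) at room temperature, and the interval of Cx3cr1 in mineral oil (5.37 to 76.1 CPM) holds its level in both other pools, so no reversal is shown for these, and the other fitted values are no measure of size. The share of plate nuclei with a member moved from 49.0% (FFPE) and 67.9% (frozen) to 28.9% and 44.9% after thinning, 25.2% and 48.2% at 5 counts and 18.9% and 39.4% at 100 CPM, frozen above FFPE each time. The summed level moved from 298.7 (FFPE) and 424 CPM (frozen) to 263 and 266 CPM without the fullest nucleus of each arm, also added after seeing the data. Without the 9 FFPE nuclei that are not in the batch 2 table, the FFPE level was 468 CPM, above the 424 CPM of all frozen nuclei. Droplet levels kept the microglia class highest under each alternative run. In SCRB-seq wells of 10 nuclei, the folds of Csf1r, C1qa and C1qb for FFPE minus frozen could not be estimated. Of the SMART-Seq2 folds, C1qb for FFPE minus frozen and Csf1r, C1qc and Siglech without the room-temperature well of 100 nuclei could not be estimated. No paired analysis by replicate number was possible because the labels number every sample 1 and the wells carry no replicate number. Nuclei number, which treatments share, was fitted as a covariate instead. In SCRB-seq that fit tested 0 members, so no member result there was adjusted for it, and in SMART-Seq2 it left 0 of 8 members called.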
